A study of Homo sapiens with 8 samples.

Results

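The genes described are 44 genes of mitosis, measured by array in 2 human acute myeloid leukemia lines exposed to diclofenac. The list covers the cyclins and kinases that start mitosis, the spindle checkpoint, the anaphase switch, kinetochores, spindle motors, condensins, cytokinesis factors and the transcription factor FOXM1. Each gene was taken by its symbol in the array annotation, and its brightest probe set, by mean log2 signal over the 8 arrays, stood for it. All 44 listed genes had a probe set, 73 probe sets in all, among 11963 named genes and 22215 probe sets tested.

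Total RNA was hybridised to Affymetrix human arrays from 4 groups of 2 arrays, labelled as biological replicates. The groups were THP-1 cells given 100 µM diclofenac or the solvent DMSO, and HL-60 cells given 100 µM diclofenac or DMSO. Each treatment, DMSO included, lasted 48 h. THP-1 is labelled a monocytic leukemia line and HL-60 a promyelocytic leukemia line, and both grew in the same serum-supplemented medium. Diclofenac is a non-steroidal anti-inflammatory drug that inhibits cyclooxygenases. The design asks which transcripts the drug moved in each line.

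As background, dividing cells build up a shared set of transcripts through G2 and mitosis. CDK1 with cyclin B starts mitosis, the Aurora and Polo-like kinases build the spindle, and the spindle checkpoint holds cells until every kinetochore is attached. The anaphase-promoting complex, loaded by CDC20 and by the ubiquitin-conjugating enzyme UBE2C, then destroys securin and cyclin B, and the central spindle directs cytokinesis. Promoters of many of these genes carry CCAAT boxes, bound by NF-Y, and a cell cycle genes homology region (CHR), bound by MuvB complexes that repress the genes in resting cells or activate them with B-MYB and FOXM1.

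Promoter sequence is shown for 7 members as examples. They are CCNB2, ZWINT and CENPE for their values with diclofenac in THP-1, and KIF4A, KIF23, MKI67 and CDC25B for their difference between the lines. Each is the 120 bases before a RefSeq transcript start on GRCh38.p14, 5′ to 3′ on the gene's strand, taken from RefSeq's promoter table. Capitals mark the CHR letters (TTTGAA or TTCGAA) and CCAAT, each on either strand.
CCNB2, chr15:59105026-59105145, plus strand: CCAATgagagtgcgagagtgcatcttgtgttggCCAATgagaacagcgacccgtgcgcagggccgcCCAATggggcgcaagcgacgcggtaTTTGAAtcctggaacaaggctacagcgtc
ZWINT, chr10:56361260-56361379, minus strand: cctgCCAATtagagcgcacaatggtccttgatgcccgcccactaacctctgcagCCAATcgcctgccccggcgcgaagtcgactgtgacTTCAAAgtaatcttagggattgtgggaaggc
CENPE, chr4:103198344-103198463, minus strand: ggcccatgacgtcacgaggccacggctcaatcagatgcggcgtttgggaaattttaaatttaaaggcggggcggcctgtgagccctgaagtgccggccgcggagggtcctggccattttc
KIF4A, chrX:70289984-70290103, plus strand: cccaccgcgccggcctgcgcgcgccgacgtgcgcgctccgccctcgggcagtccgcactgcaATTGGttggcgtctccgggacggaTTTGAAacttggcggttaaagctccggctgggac
KIF23, chr15:69414229-69414348, plus strand: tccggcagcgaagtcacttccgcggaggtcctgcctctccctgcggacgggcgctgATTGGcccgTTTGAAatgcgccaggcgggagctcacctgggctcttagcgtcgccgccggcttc
MKI67, chr10:128126424-128126543, minus strand: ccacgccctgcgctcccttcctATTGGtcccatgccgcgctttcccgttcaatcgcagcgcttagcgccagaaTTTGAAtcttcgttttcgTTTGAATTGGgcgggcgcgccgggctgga
CDC25B, chr20:3796190-3796309, plus strand: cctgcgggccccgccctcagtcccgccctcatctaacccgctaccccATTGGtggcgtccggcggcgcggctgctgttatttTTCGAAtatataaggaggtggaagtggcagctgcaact

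The CHR letters began 29 bases before the start in CCNB2, 31 in ZWINT, 34 in KIF4A, 38 in CDC25B and 55 in KIF23. In MKI67 they occurred at 47 and at 29 bases, and the match at 29 shares its last base with a CCAAT match. No match lay in the CENPE stretch. CDC25B has 4 windows in the table and ZWINT 2, and for each gene the window with the most kinds of match is printed. Over the 250 bases before the start, 20 of the 37 members found in the table held CHR letters, 31 held CCAAT and 18 held both. Of the genes printed all but CENPE held both, so they are not typical of the list. By window, CHR letters occurred in 44.2% of the 52 member windows and in 14.3% of all 35116 windows. CCAAT occurred in 71.2% of member windows and 32.0% of all windows, and the pair occurred in 38.5% and 5.05%. These are letter matches, not measured binding, and both kinds occur among members with opposite line differences. TPX2, TTK, FOXM1, BUB3, AURKA, UBE2C and RACGAP1 were not matched.

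All 44 members lay above the background of the bacterial control probe sets on every array, but 1 array stood apart. THP-1 DMSO replicate 2 had a median intensity of 241 against 110 to 150 on the other 7 arrays, only 50.3% of probe sets above background against 66.4 to 72.1%, and a correlation of 0.898 with its replicate against 0.977 to 0.984 in the other pairs. Its background reached 239, close to its values for CDC25C (250) and KIF4A (298). The members' median distance between the 2 arrays of a group was 0.071 log2 units in THP-1 diclofenac, 0.205 in THP-1 DMSO, 0.106 in HL-60 diclofenac and 0.162 in HL-60 DMSO. For comparisons that use this array, the value without it is added for the list, for each role of the drug comparison in THP-1, and for the genes whose call, sign or size it moves most. The markers checked do not settle the line names, which are used as labelled. The granule protease ELANE was bright in both lines (11923 to 17064), and with DMSO 3 of 5 promyelocyte granule genes were called higher in THP-1 (ELANE, AZU1 and PRTN3) and 1 lower (CTSG). Of 7 monocyte genes 1 was called higher in THP-1 with DMSO (CSF1R, 1.24) and 2 lower (CD36 and FCN1). CSF1R was not called without THP-1 DMSO replicate 2. With diclofenac 1 monocyte gene was called higher (CD14, 2.45) and 2 lower, the lowest at -3.2. Of the 5 granule genes 2 were then called higher and 1 lower. Of all genes, 9.31% were called higher and 9.4% lower with DMSO, and 8.48% and 7.63% with diclofenac.

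No mitosis gene passed the test with diclofenac in THP-1. Most of the 44 genes nevertheless had lower values with the drug, among them all 5 kinetochore genes and all 6 chromosome structure genes, by a small amount and depending on how the arrays were scaled. On quantile-normalized log2 intensities, 33 members lay below 0 and 11 above, with a median of -0.17 and a range of -0.59 to 0.48. Of all genes 51.6% lay below 0, with a median of -0.01. In limma's test with Benjamini-Hochberg adjustment, 0 members passed 0.05, where 0.176% of all genes were called higher and 0.00836% lower. Before adjustment, 9 members were lower at a p under 0.05 (20.5%, beside 5.62% of all genes) and 1 was higher (2.27%, beside 6.26%). Both diclofenac arrays lay below both DMSO arrays for 26 members, 59.1% beside 21.3% of all genes, and above them for 5 members, 11.4% beside 19.3%. In bulk RNA, fewer dividing cells and less of each transcript per cell cannot be told apart.

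**Figure D1:**
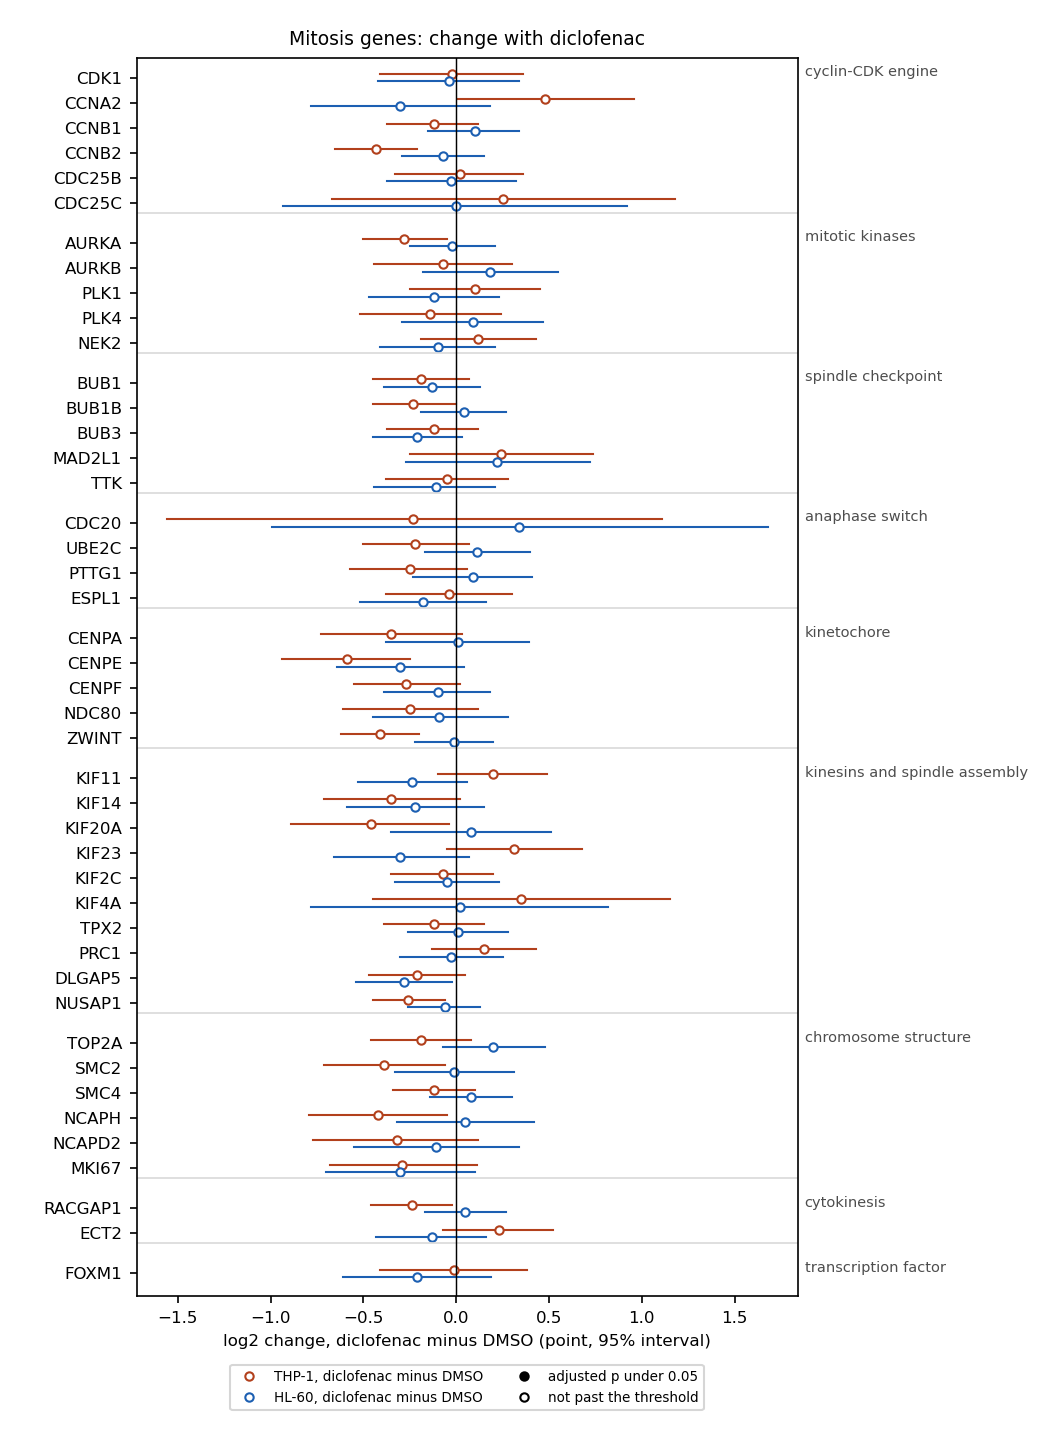
Log2 change with diclofenac (diclofenac minus DMSO, x axis) of the 44 mitosis genes, grouped by role, with 95% intervals from the fit over all 4 groups, THP-1 above HL-60. In THP-1 most points lie left of 0, with CENPE lowest at -0.59 and CCNA2 highest at 0.48, and no point in either line is past the adjusted threshold.

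Among the kinetochore genes, CENPE, a kinesin that carries chromosomes to the spindle equator, gave 564 and 631 on the THP-1 diclofenac arrays, against 928 and 903 on the THP-1 DMSO arrays. ZWINT, which recruits motor and checkpoint proteins to the kinetochore, gave 4988 and 5457 with diclofenac, against 6621 and 5602 with DMSO. In both genes the diclofenac arrays were the lower ones and did not overlap with the DMSO arrays. The change was -0.59 ± 0.15 for CENPE (SE, 2 arrays per group; limma adjusted p = 0.28) and -0.41 ± 0.09 for ZWINT (limma adjusted p = 0.19, the lowest of the 44). CENPA, the histone variant that marks centromeres, CENPF and the microtubule-binding NDC80 had values of -0.35, -0.27 and -0.25, and of -0.27, -0.11 and -0.47 without THP-1 DMSO replicate 2. The 5 genes had a median of -0.35, and without that array all 5 were again below 0 with a median of -0.31.

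The chromosome structure genes had a median of -0.30, and again -0.30 without that array. The condensin ATPase subunit SMC2 gave 789 and 783 with diclofenac, against 952 and 1048 with DMSO (-0.39 ± 0.14, SE). NCAPH, the condensin subunit that closes the ring, gave 599 and 551 with diclofenac, against 717 and 853 with DMSO (-0.42 ± 0.16). Neither overlapped between the groups. SMC4, NCAPD2, TOP2A and MKI67, the Ki-67 protein that coats mitotic chromosomes, had values between -0.12 and -0.32. MKI67 came to -0.11, SMC4 to -0.21, TOP2A to -0.34 and NCAPD2 to -0.57 without THP-1 DMSO replicate 2. For TOP2A, the topoisomerase that untangles sister chromatids, the deposited values overlapped, at 2780 and 2692 with diclofenac against 3558 and 2250 with DMSO.

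Of the cyclin and CDK genes 3 of 6 lay below 0 in THP-1, and of the mitotic kinases 3 of 5, with medians of 0.00 and -0.07. Once THP-1 DMSO replicate 2 was left out, 5 of 6 and 4 of 5 lay below 0, and the medians were -0.15 and -0.12. CCNB2, a mitotic cyclin, gave 2619 and 2597 with diclofenac, against 3402 and 2931 with DMSO, a change of -0.43 ± 0.10 (SE; limma adjusted p = 0.20). CCNB1, the main partner of CDK1, gave 3061 and 2878 with diclofenac, against 3265 and 2616 with DMSO. CDK1 gave 3524 and 4207 with diclofenac, against 4880 and 2553 with DMSO. The last 2 genes overlapped on this scale, and the 2 DMSO arrays of CDK1 lay on either side of the drug arrays. CCNA2, which drives S phase and entry into mitosis, was the only member higher at an unadjusted p under 0.05, with 2660 and 2397 against 2386 and 1205. Its change of 0.48 ± 0.21 came to 0.11 without THP-1 DMSO replicate 2, the array with the lowest value. The 2 probe sets of CCNA2 disagreed in sign in THP-1. Of the kinases, AURKA had a value of -0.28, AURKB -0.07, PLK4 -0.14, PLK1 0.10 and NEK2 0.12. Without that array AURKB came to -0.13, PLK1 to -0.03 and NEK2 to 0.06, and CDK1 to -0.29.

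Of the spindle checkpoint genes 4 of 5 lay below 0, and all 5 did without THP-1 DMSO replicate 2 (median -0.12 with it and -0.22 without), but only 2 of 5 on the deposited scale (median 0.02). BUB1B, which inhibits the anaphase-promoting complex, gave 1584 and 1597 with diclofenac, against 1920 and 1548 with DMSO (-0.23 ± 0.10, SE). BUB1 had a value of -0.19, BUB3 -0.12 and TTK, the kinase that starts checkpoint signalling, -0.05, and without that array -0.31, -0.22 and -0.19. MAD2L1 stood at 0.24 and came to -0.15 without it. UBE2C, the securin PTTG1 and the separase ESPL1 had values of -0.22, -0.25 and -0.04, and of -0.07, -0.05 and -0.06 without that array. The median of the 4 anaphase genes was -0.22, against -0.06 without the array and -0.05 on the deposited scale. For CDC20 the THP-1 DMSO arrays disagreed, with 176 and 112 on the diclofenac arrays and 58.6 and 497 on the DMSO arrays, so its value of -0.23 ± 0.58 carries no direction. It was 0.75 without THP-1 DMSO replicate 2.

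Among spindle genes, the motor KIF20A gave 707 and 739 with diclofenac, against 946 and 1018 with DMSO (-0.46 ± 0.19, SE). NUSAP1, which bundles spindle microtubules, gave 5334 and 5691 against 6428 and 5298 (-0.26 ± 0.08). KIF20A was free of overlap on the deposited scale, and NUSAP1 was not. KIF14 and DLGAP5 had values of -0.35 and -0.21, whereas KIF11, the motor that separates the spindle poles, and KIF23, a motor of the central spindle, stood at 0.20 and 0.31. KIF4A, at 0.35, came to -0.32 without THP-1 DMSO replicate 2, and KIF14 to -0.13. Of the 10 spindle genes 6 lay below 0 (median -0.10), 8 without that array (-0.15) and 5 on the deposited scale (-0.01). In cytokinesis, RACGAP1 and its partner ECT2 had values of -0.24 and 0.23, and FOXM1 stood at -0.01, with 529 and 444 on the diclofenac arrays and 483 and 555 on the DMSO arrays. Without THP-1 DMSO replicate 2 the cytokinesis median went from -0.01 to -0.03, and FOXM1 came to -0.03.

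In HL-60 no mitosis gene passed the test, and values lay close to 0. The median was -0.04 (all genes 0.00), with 28 members below 0 and 16 above, where 50.2% of all genes lay below 0, and a range of -0.30 to 0.34. In limma's test with Benjamini-Hochberg adjustment 0 members were called, where 0.00836% of all genes were called higher and 0% lower. DLGAP5, which stabilises spindle microtubules, was alone in lying lower with an unadjusted p below 0.05 (1 member, 2.27%, beside 2.13% of all genes), and 0 members were higher, where 2.44% of all genes were. It gave 1627 and 1515 with diclofenac, against 1895 and 1869 with DMSO (-0.28 ± 0.11, SE). The fit takes its spread from all 4 groups, so p-values and intervals in HL-60 also depend on THP-1 DMSO replicate 2. Without that array the HL-60 median was again -0.04. Both diclofenac arrays lay below both DMSO arrays for 12 members, 27.3% beside 19.7% of all genes, and above them for 5, 11.4% beside 20.6%. Without quantile normalization 24 members lay below 0 and 20 above, a smaller share below 0 than that of all genes (59.2%), with a median of -0.01 for the members and -0.06 for all genes.

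KIF23, MKI67, CENPE and CCNA2 had the lowest HL-60 values. KIF23 gave 975 and 881 on the HL-60 diclofenac arrays, against 1189 and 1110 with DMSO, and MKI67 gave 1146 and 1429 against 1500 and 1648. CENPE gave 641 and 621 with diclofenac, against 748 and 879 with DMSO. None of the 3 overlapped, and they and CCNA2 each had a value of -0.30. TOP2A gave 3706 and 3844 with diclofenac, against 2822 and 3498 with DMSO, a value of 0.20. CCNB1, CDK1, PLK1 and FOXM1 stood at 0.10, -0.04, -0.12 and -0.21. The 95% interval of the change lay within 0.5 log2 units of 0 for 28 of the 44 members in HL-60 and for 21 in THP-1, and within 1 unit for 43 and 41.

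Setting the lines side by side, 7 genes lay lower with diclofenac in both without overlap on the quantile scale (15.9%, beside 4.36% of all genes). They were BUB1, BUB3, CENPE, CENPF, KIF14, DLGAP5 and MKI67, and no gene lay higher in both. The genes stand here by their brightest probe set. The probe sets of BUB1 and BUB3 disagreed in sign in both lines, and those of CENPF in THP-1. On the deposited scale 3 of the 7, CENPE, KIF14 and MKI67, again lay lower in both lines without overlap (6.82%, beside 5.24% of all genes). Another 6 genes lay without overlap on opposite sides in the 2 lines (13.6%, beside 8.08% of all genes). CCNA2, KIF11, KIF23 and ECT2 were higher in THP-1 and lower in HL-60, and UBE2C and TOP2A were the other way round. The probe sets of CCNA2 disagreed in sign in THP-1, and those of TOP2A in both lines. On the deposited scale UBE2C overlapped in both lines, and KIF23 and TOP2A in THP-1, which leaves 3 genes (6.82%, beside 5.73%). The test of the difference itself (change in THP-1 minus change in HL-60, limma with Benjamini-Hochberg adjustment) called 0 members, and 0 of all genes (0%). Without adjustment 3 members lay higher at a p under 0.05 and 3 lower, beside 3.98% and 3.42% of all genes. The median difference was -0.14, and 5 of the 44 intervals lay within 0.5 log2 units of 0, so these arrays bound the difference between the lines only loosely.

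The scaling of the arrays changes how the THP-1 result reads. On the deposited scale, without quantile normalization, the members' median in THP-1 was -0.08, with 29 below 0 and 15 above, while the median over all genes was -0.15. The share of members below 0 was then close to that of all genes, of which 62.7% lay below 0. There 0 members passed the adjusted threshold, 4 members (9.09%) were lower and 1 (2.27%) higher at an unadjusted p under 0.05, beside 4.73% and 5.34% of all genes. Without overlap 13 members lay lower (29.5%, beside 20.6% of all genes) and 4 higher (9.09%, beside 14.6%). With each array centred on its median the members' median was 0.27, with 40 of 44 above 0, and that of all genes 0.20. Under that centring the direction of the list turns in both lines, since the HL-60 median came to 0.15. The 5982 brighter genes had medians of 0.04 with quantile normalization, 0.04 on the deposited scale and 0.39 after centring, above the members each time.

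Without THP-1 DMSO replicate 2 the quantile and deposited scales gave closely similar medians, -0.18 with 38 of 44 below 0 and -0.19 with 36 below 0. The 5982 brighter genes then had medians of -0.02 and -0.01. In that quantile fit 0 members passed the adjusted threshold and 9 were lower at an unadjusted p under 0.05 (20.5%, beside 4.92% of all genes), and 0 were higher, beside 5.89%. Without THP-1 DMSO replicate 1, so that the array that stood apart was the only control, 16 members were called, 5 higher (11.4%) and 11 lower (25%). In the same fit 16.3% of all genes were called higher and 16.4% lower, and the members' median came to -0.07. The difference between lines then called 8 members, 3 higher and 5 lower, beside 10.4% and 9.02% of all genes.

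**Figure D2:**
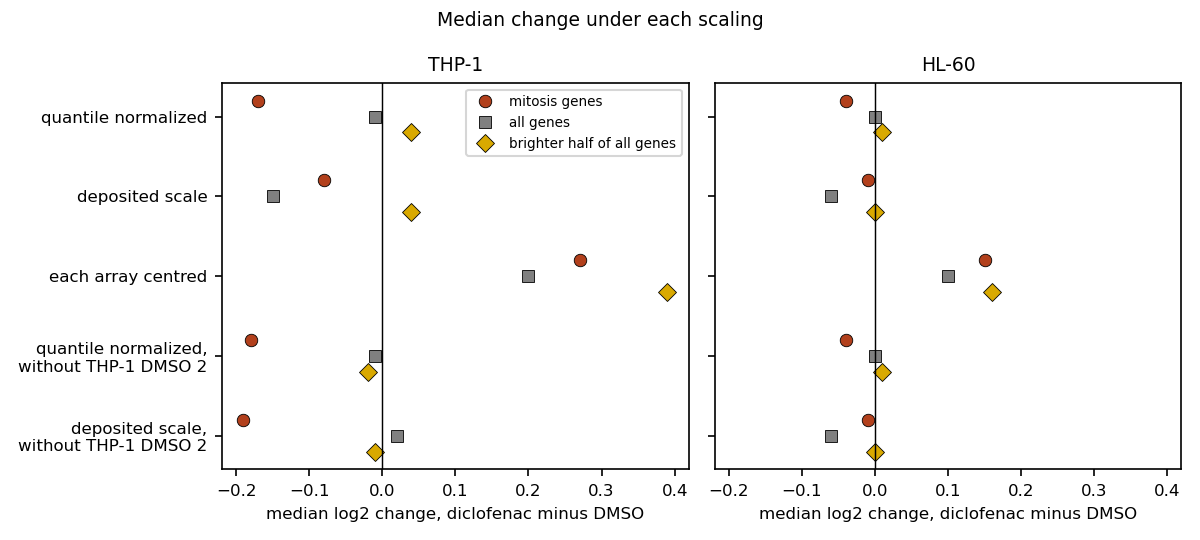
Median log2 change with diclofenac (diclofenac minus DMSO, x axis) in THP-1 (left) and HL-60 (right) under 5 treatments of the arrays, for the 44 mitosis genes, all genes and the brighter genes. In THP-1 the mitosis genes lie left of the brighter genes in each row but cross 0 when arrays are centred, from -0.17 with quantile normalization to 0.27.

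The 2 lines differed from each other in mitosis gene expression far more than either did with the drug. With DMSO, 16 of the 44 members passed limma's adjusted threshold between THP-1 and HL-60, 7 higher in THP-1 (15.9%, beside 9.31% of all genes) and 9 lower (20.5%, beside 9.4%). With diclofenac 17 passed, 5 higher (11.4%, beside 8.48%) and 12 lower (27.3%, beside 7.63%). Bright genes were called more often than all genes. Of the 5982 brighter genes, 938 were called higher and 1020 lower with DMSO, and 846 and 828 with diclofenac. Beside these genes, the members' share with DMSO was close for higher calls and somewhat larger for lower calls. With diclofenac it was smaller for higher calls and larger for lower calls. The members' medians were -0.05 with DMSO and -0.19 with diclofenac. The same 10 members were called under both treatments, all with the same sign. These comparisons use the same arrays as the drug comparisons and are not independent of them.

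**Figure D3:**
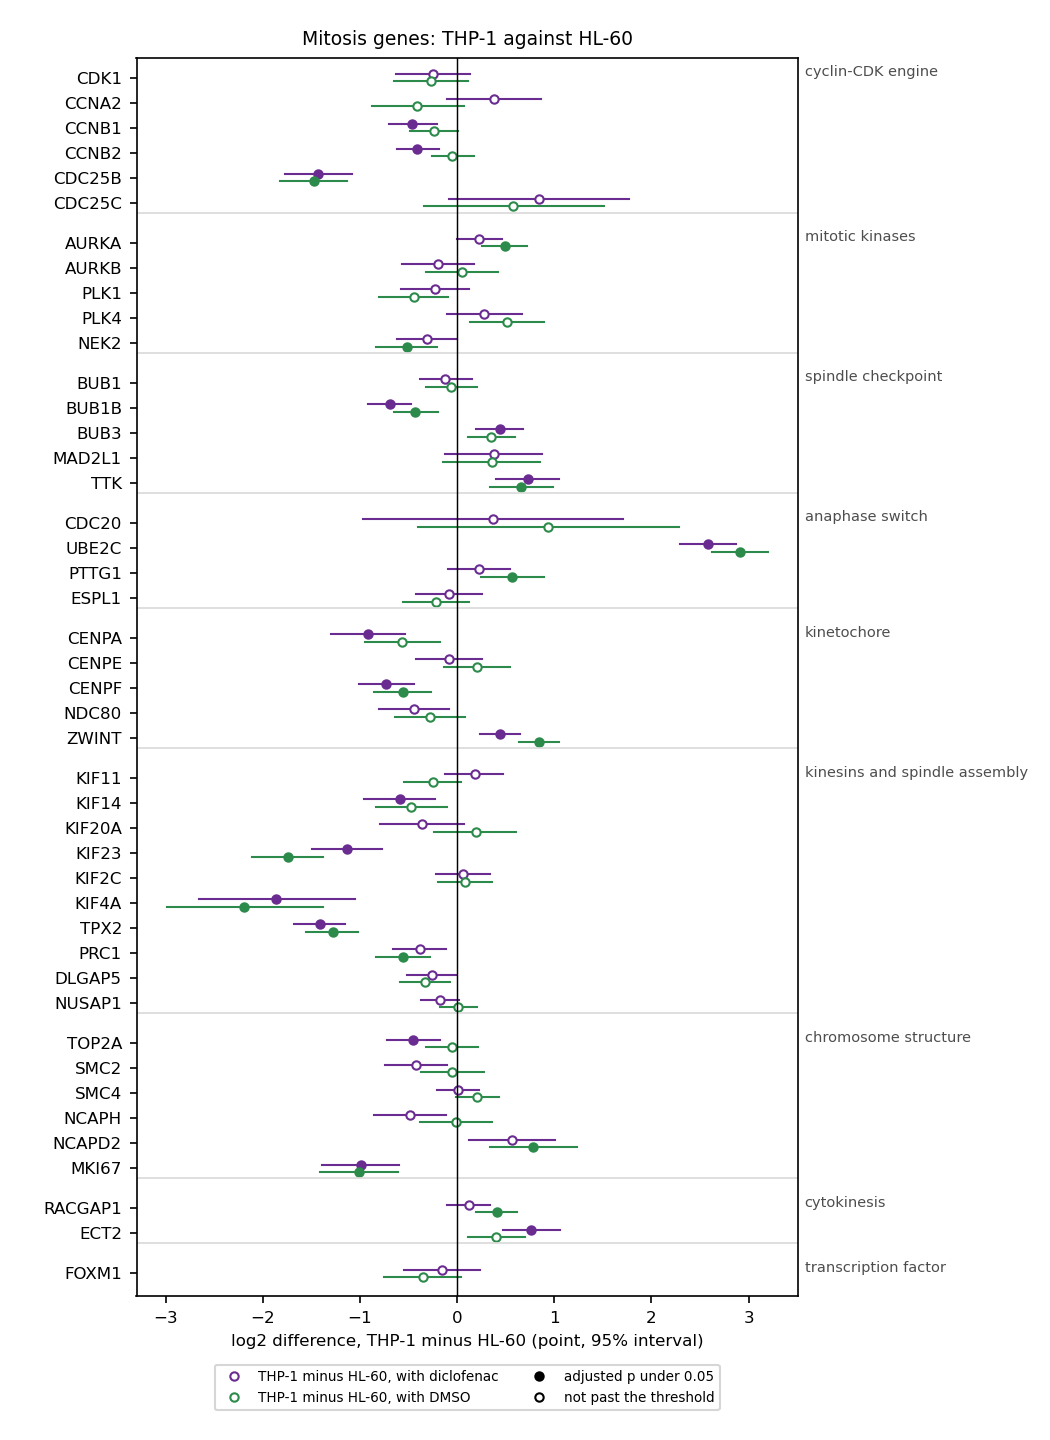
Log2 difference between the lines (THP-1 minus HL-60, x axis) of the 44 mitosis genes with 95% intervals, with diclofenac above DMSO for each gene, filled where the adjusted p is under 0.05. UBE2C stands alone on the right at 2.91 with DMSO, and KIF4A, KIF23, CDC25B, TPX2 and MKI67 lie at or below -1 or close to it under both treatments.

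UBE2C was the member with the highest THP-1 to HL-60 ratio. It gave 3639 and 3866 on the THP-1 diclofenac arrays and 4022 and 3709 on the THP-1 DMSO arrays, against 546 and 563 on the HL-60 diclofenac arrays and 549 and 505 on the HL-60 DMSO arrays. The 4 arrays of each line lay close together and far from the other line. The difference was 2.91 ± 0.13 with DMSO (7.51-fold; limma adjusted p = 4.5e-06) and 2.58 ± 0.13 with diclofenac (5.98-fold; limma adjusted p = 7.6e-06). PTTG1, the securin that UBE2C helps to destroy, was higher in THP-1 with DMSO only (0.57 ± 0.14, limma adjusted p = 0.026, against 0.23 with diclofenac). It was not called on the deposited scale, nor without THP-1 DMSO replicate 2 (0.37).

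**Figure D4:**
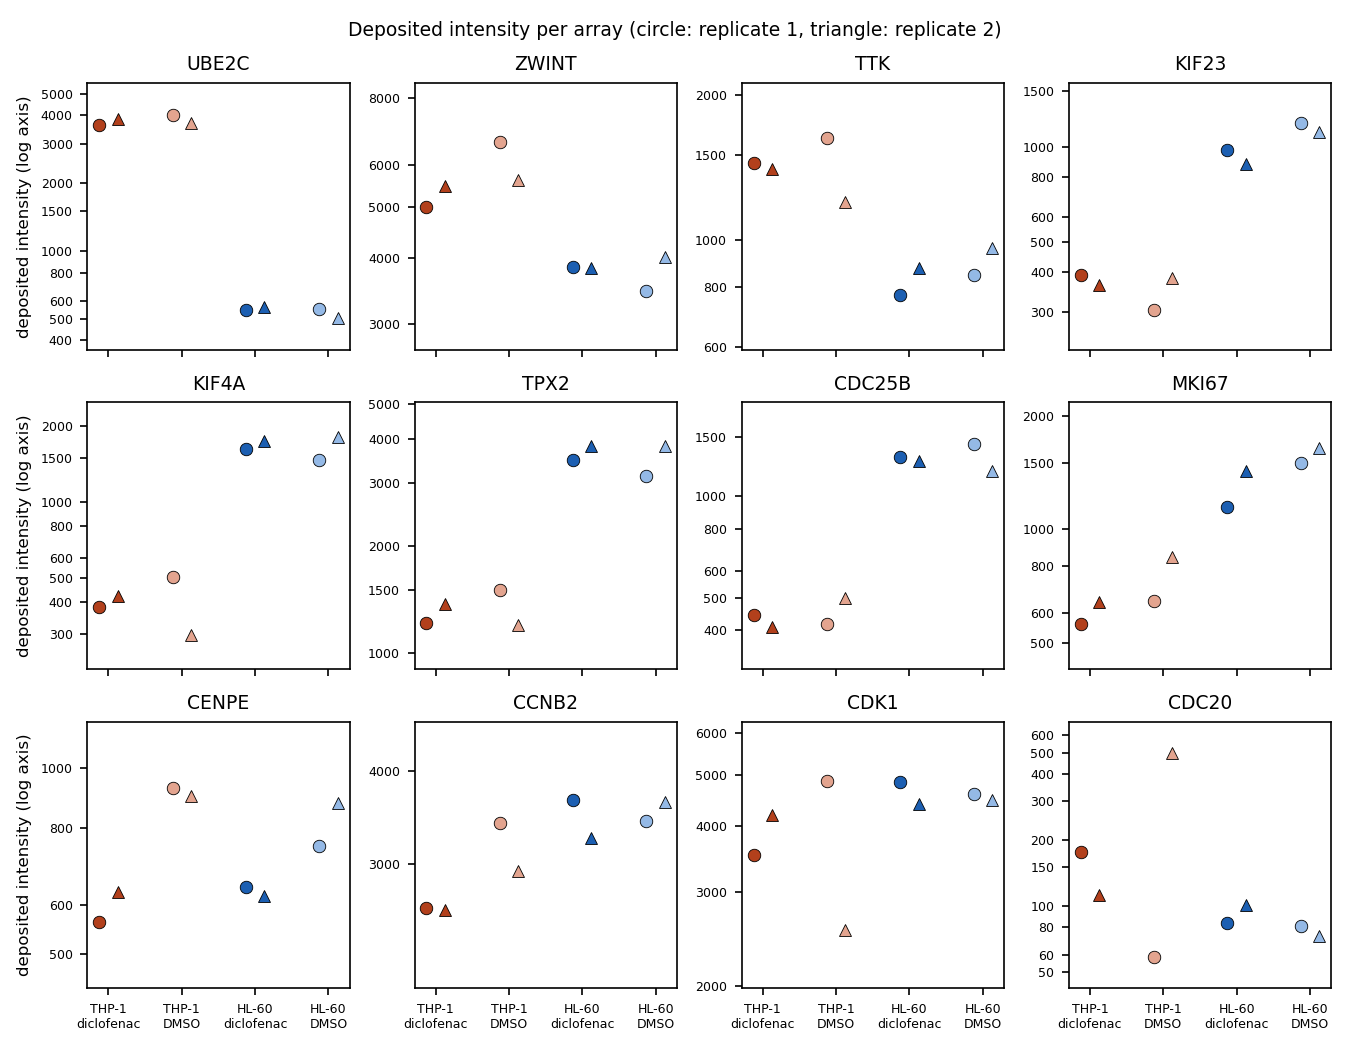
Deposited intensity (log axis) on each of the 8 arrays for 12 mitosis genes, by group, circles for replicate 1 and triangles for replicate 2. UBE2C, ZWINT and TTK are high in THP-1, KIF23, KIF4A, TPX2, CDC25B and MKI67 are high in HL-60, and the THP-1 DMSO replicates part for CDK1 and CDC20.

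Of the 9 genes lower in THP-1 with DMSO, 4 were spindle genes. KIF4A, a chromosome-bound motor that works with PRC1, gave 383 and 423 with diclofenac and 502 and 298 with DMSO in THP-1, against 1617 and 1739 with diclofenac and 1461 and 1814 with DMSO in HL-60. KIF23 gave 391 and 365 with diclofenac and 305 and 384 with DMSO in THP-1, against 975 and 881 with diclofenac and 1189 and 1110 with DMSO in HL-60. TPX2, which activates AURKA on the spindle, gave 1214 and 1367 with diclofenac and 1500 and 1193 with DMSO in THP-1, against 3472 and 3818 with diclofenac and 3137 and 3815 with DMSO in HL-60. For these 3 genes every HL-60 array was above every THP-1 array. With DMSO the differences were -2.19 ± 0.35 for KIF4A, -1.74 ± 0.16 for KIF23 and -1.28 ± 0.12 for TPX2, with limma adjusted p-values of 0.0036, 0.00017 and 0.00017. That of KIF4A was -1.58 without THP-1 DMSO replicate 2. PRC1, the microtubule bundler of the central spindle, was lower in THP-1 with DMSO (-0.56 ± 0.12, limma adjusted p = 0.016), and KIF14 with diclofenac (-0.59 ± 0.16, limma adjusted p = 0.044).

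CDC25B, the phosphatase that starts CDK1 activation, was also lower in THP-1. It gave 443 and 408 with diclofenac and 419 and 498 with DMSO in THP-1, against 1309 and 1275 with diclofenac and 1430 and 1193 with DMSO in HL-60. The difference with DMSO was -1.47 ± 0.15 (0.36-fold; limma adjusted p = 0.00032). CDK1 itself was called under neither treatment (-0.27 with DMSO, 0.00 there without THP-1 DMSO replicate 2, and -0.25 with diclofenac), and CCNB1 and CCNB2 were called with diclofenac only, at -0.46 and -0.41. With DMSO, CCNB2 gave 3402 and 2931 in THP-1 against 3427 and 3627 in HL-60, a difference of -0.05.

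MKI67, the gene of the proliferation marker Ki-67, gave 562 and 643 with diclofenac and 644 and 845 with DMSO in THP-1, against 1146 and 1429 with diclofenac and 1500 and 1648 with DMSO in HL-60. The difference was -1.01 ± 0.17 with DMSO and -0.99 ± 0.17 with diclofenac (limma adjusted p = 0.0053 and 0.0062). NCAPD2, a condensin subunit, went the other way, at 735 and 907 with diclofenac and 1228 and 850 with DMSO in THP-1 against 557 and 491 with diclofenac and 570 and 594 with DMSO in HL-60 (0.78 ± 0.19 with DMSO, limma adjusted p = 0.027). TOP2A was called with diclofenac only (-0.45, against 0.10 for its other bright probe set), and the condensin genes SMC2, SMC4 and NCAPH under neither treatment.

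Kinetochore and checkpoint genes split between the lines. ZWINT was higher in THP-1, with 4988 and 5457 with diclofenac and 6621 and 5602 with DMSO, against 3846 and 3834 with diclofenac and 3468 and 4014 with DMSO in HL-60 (0.84 ± 0.09 with DMSO, limma adjusted p = 0.00041). TTK gave 1443 and 1406 with diclofenac and 1631 and 1201 with DMSO in THP-1, against 770 and 877 with diclofenac and 846 and 962 with DMSO in HL-60 (0.66 ± 0.14 with DMSO, limma adjusted p = 0.015). CENPF, by contrast, gave 1129 and 1126 with diclofenac and 1218 and 1344 with DMSO in THP-1, against 2010 and 1852 with diclofenac and 1987 and 2059 with DMSO in HL-60 (-0.56 ± 0.12 with DMSO, limma adjusted p = 0.018). None of these 3 genes overlapped between the lines. BUB1B was lower in THP-1 under both treatments (-0.43 with DMSO and -0.69 with diclofenac). CENPA was called lower (-0.92) and BUB3 higher (0.44) with diclofenac only, and CENPE, BUB1, MAD2L1 and NDC80 were called under neither treatment. With THP-1 DMSO replicate 2 left out, MAD2L1 was called higher under both treatments (0.76 with DMSO and 0.38 with diclofenac), BUB3 (0.45) and CENPA (-0.68) were called with DMSO too, and NDC80 was called lower with diclofenac (-0.45).

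Of the kinases, AURKA gave 2731 and 2408 with diclofenac and 3154 and 2484 with DMSO in THP-1, against 2222 and 2048 with diclofenac and 2027 and 2245 with DMSO in HL-60. It was called higher in THP-1 with DMSO (0.49 ± 0.10, limma adjusted p = 0.012). NEK2, which parts the centrosomes, was called lower with DMSO (-0.52). AURKB, the kinase of the chromosomal passenger complex, and PLK1 were called under neither treatment, at 0.05 and -0.44 with DMSO. RACGAP1 was called with DMSO (0.41 ± 0.10, limma adjusted p = 0.022) and ECT2 with diclofenac (0.76 ± 0.13, limma adjusted p = 0.0053), both higher in THP-1. FOXM1 lay at -0.35 with DMSO and -0.16 with diclofenac and was not called.

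On the deposited scale 4 members were called higher and 8 lower with DMSO, beside 7.64% and 8.63% of all genes. With diclofenac 3 were called higher and 9 lower, beside 8.13% and 7.61%. AURKA, BUB1B, PTTG1, PRC1 and RACGAP1 with DMSO, and CCNB1, CCNB2, BUB3, ZWINT and TOP2A with diclofenac, were called only with quantile normalization of these 2 scales. Without THP-1 DMSO replicate 2, 20 members were called with DMSO, 9 higher and 11 lower (beside 11.4% and 11% of all genes), and 15 of them were among the 16. The 5 that joined were BUB3, MAD2L1, CENPA, KIF14 and ECT2. With diclofenac 24 were called in that fit (54.5%, beside 27.4% of all genes), among them all 17 and also CCNA2, MAD2L1, NDC80, PRC1, SMC2, NCAPH and NCAPD2. CDC25B, TTK, UBE2C, CENPF, KIF23, KIF4A, TPX2 and MKI67 were called under both treatments on both scales and without that array. CDC25B, UBE2C, KIF23 and TPX2 were called under both treatments whichever of the 8 arrays was left out. The counts moved with the array left out. With DMSO they were 8 and 6 without HL-60 DMSO replicate 1 or 2 (18.2% and 13.6%, beside 9.68% and 10.4% of all genes). Without THP-1 DMSO replicate 1 they were 24 with DMSO (54.5%, beside 44.8% of all genes) and 24 with diclofenac (54.5%, beside 27.6%). With diclofenac they were 5 and 6 without THP-1 diclofenac replicate 1 or 2 (11.4% and 13.6%, beside 7.43% and 7.57%), and 9 and 7 without HL-60 diclofenac replicate 1 or 2 (20.5% and 15.9%, beside 7.92% and 8%).

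For the 16 members with several probe sets, the choice of probe set matters to the drug comparison. The probe sets of a gene disagreed in sign for 11 of the 16 in THP-1 and 6 in HL-60, and for 6 between the lines with DMSO. TOP2A has 2 bright probe sets that disagreed in both lines. The brighter one stood at -0.19 in THP-1 and 0.20 in HL-60, and the other, with 2869 and 2845 on the THP-1 diclofenac arrays against 2998 and 1662 with DMSO and 2635 and 2624 on the HL-60 diclofenac arrays against 3193 and 3628 with DMSO, stood at 0.23 and -0.40. For CDK1 the brightest probe set had values near 0 in both lines, while the other 2 stood at -0.52 and -0.30 in THP-1 and at -0.32 and -0.30 in HL-60. In THP-1 the brightest probe set came to -0.29 without THP-1 DMSO replicate 2. The 4 MKI67 probe sets lay below 0 with diclofenac in both lines, and between the lines with DMSO they gave -1.01, -0.99, 0.20 and -0.54.

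**Figure D5:**
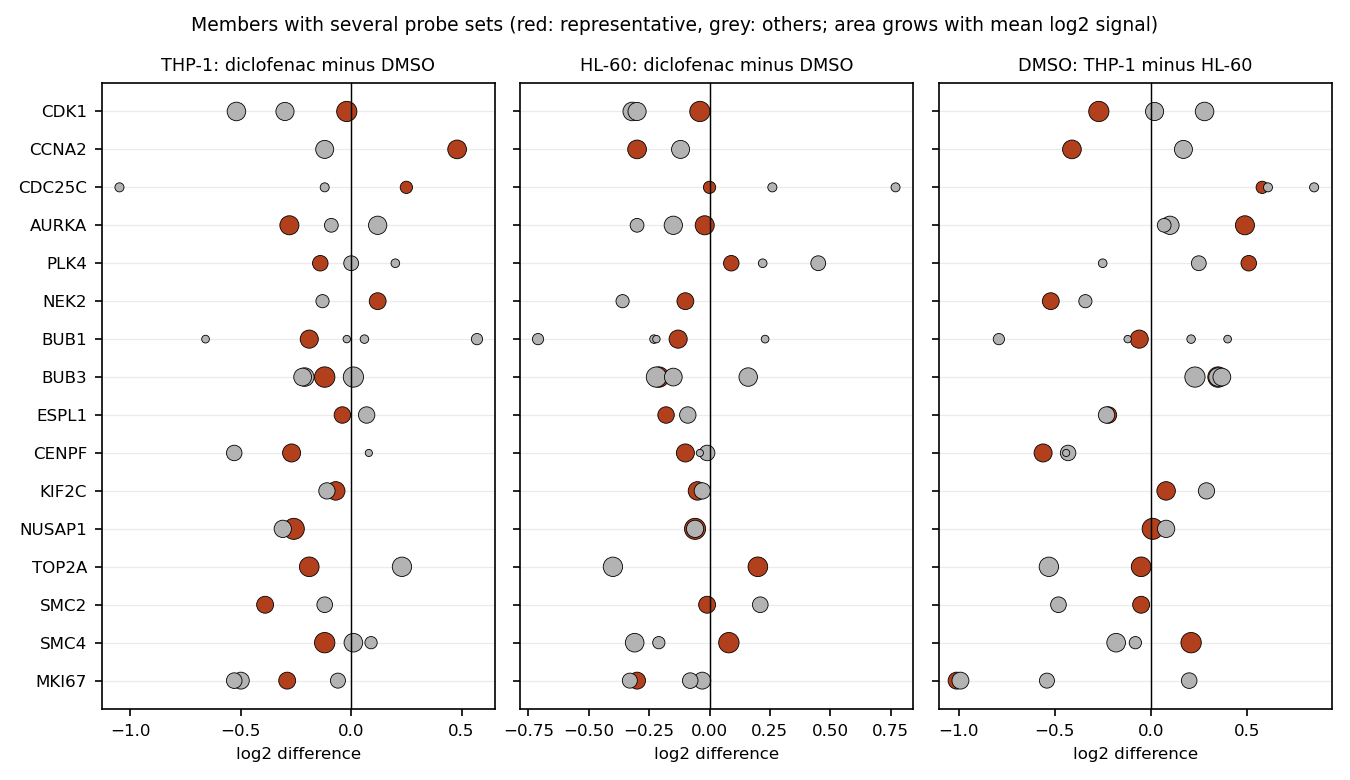
Log2 differences (x axes) of every probe set of the 16 mitosis genes with several, for diclofenac minus DMSO in THP-1 and HL-60 and for THP-1 minus HL-60 with DMSO, the brightest probe set in red. The points of a gene often straddle 0 in the drug comparisons, as for TOP2A, and most of the MKI67 points lie left of 0 between the lines.

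Other cell cycle genes, 137 in 6 lists of which 122 were measured, were read in the same fit. None of them passed limma's adjusted threshold with diclofenac in either line. In THP-1 the other kinetochore, spindle and cytokinesis genes had a median of -0.22, with 24 of 35 below 0 and 10 lower at an unadjusted p under 0.05. Of all genes, 51.6% lay below 0 in THP-1 and 5.62% were lower at that unadjusted p. The tubulin-binding STMN1 gave 2169 and 2114 with diclofenac, against 2753 and 2559 with DMSO, and the phosphatase CDKN3 gave 1138 and 1216 against 1469 and 1559. Neither overlapped. DNA replication genes had a median of -0.23, with 21 of 26 below 0. On the deposited scale it was -0.08 with 16 of 26 below 0, beside 62.7% of all genes, and that of the other kinetochore and spindle genes was -0.16 with 25 of 35 below 0. Among the DNA replication genes the ribonucleotide reductase subunit RRM2 stood at -0.48 ± 0.08 and the replication fork factor GINS1 at -0.64 ± 0.11 (SE; limma adjusted p = 0.08 and 0.11). The regulators of G2/M entry and MuvB complexes had a median of -0.18, with 13 of 18 below 0. Subunits and inhibitors of the anaphase-promoting complex (10 genes) had a median of -0.07, and the other condensin and cohesin genes (16) a median of 0.02. These 3 lists had medians of -0.14, -0.01 and 0.14 on the deposited scale. Without THP-1 DMSO replicate 2 they were -0.15, -0.05 and -0.09, and on the deposited scale -0.13, -0.05 and -0.11. The condensin and cohesin median thus turned below 0 without that array. On the quantile and deposited scales, other kinetochore and spindle genes then had -0.25 and -0.24, and DNA replication genes -0.20 and -0.23.

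The CDK inhibitors and cell cycle exit genes lay on the other side in THP-1, with a median of 0.18 and 13 of 17 above 0 (0.21 and again 13 on the deposited scale). Of all genes, 48.4% lay above 0, and 37.3% on the deposited scale. Without THP-1 DMSO replicate 2 the median of this list was 0.22, and 0.29 on the deposited scale. BTG1, an antiproliferative gene, gave 3217 and 2905 with diclofenac, against 1881 and 1543 with DMSO (0.71 ± 0.10, SE; limma adjusted p = 0.053). The related TOB1 gave 2216 and 2190 with diclofenac, against 1223 and 682 with DMSO. Both were free of overlap. In HL-60 the 6 lists had medians between -0.11 and 0.00. The cohesin loader NIPBL gave 517 and 446 on the HL-60 diclofenac arrays against 860 and 996 with DMSO, and 1276 and 1145 on the THP-1 diclofenac arrays against 802 and 730 with DMSO, with values of -0.85 in HL-60 and 0.61 in THP-1 that did not pass the adjusted threshold.

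Between the lines with DMSO, the list of other kinetochore and spindle genes had 2 of 35 members called higher in THP-1 and 5 lower, where 9.31% and 9.4% of all genes were called. BIRC5, the survivin subunit of the chromosomal passenger complex, gave 2333 and 1452 on the THP-1 DMSO arrays against 709 and 700 on the HL-60 DMSO arrays (1.39 ± 0.15, SE; limma adjusted p = 0.00042). MAD1L1, which anchors MAD2 at kinetochores, gave 384 and 363 against 1187 and 1201 (-1.71 ± 0.21; limma adjusted p = 0.00087). The cohesin subunit SMC1A gave 1960 and 1564 against 4547 and 4788 (-1.32 ± 0.09; limma adjusted p = 3.9e-05). All 3 were free of overlap between the lines. CDKN2A, the gene of the p16 CDK inhibitor, gave 162 and 374 on the THP-1 DMSO arrays against 1461 and 1596 on the HL-60 DMSO arrays (-2.50 ± 0.19; limma adjusted p = 6.6e-05).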

How the data were processed

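The deposited table holds 1 linear intensity per probe set and array. The authors' software is not given in the sources used here, and in the deposited values every array has nearly the same mean after the highest and lowest 2% are left out. Per the labels' protocols, biotin-labelled cRNA from total RNA was hybridised. After removal of 62 control probe sets from the 22277, the tests ran on 22215, of which 19064 have 1 gene symbol, 1043 several and 2108 none listed here. An offset of 50 was added to the deposited intensities, and log2 values were quantile normalized because array medians differed by 0.87 log2 units, more than the 0.5 allowed. Changes are thus on the log2(intensity + 50) scale, which understates those of dim genes. The p-values are limma's (version 3.58.1, R 4.3.3; 1 fit of 4 groups with intensity trend, 4 residual degrees of freedom), with Benjamini-Hochberg adjustment over all probe sets, and a call is an adjusted p under 0.05. The p-values set each difference against the spread between these arrays, which is partly shared across probe sets. Each array's background was set at percentile 95 of its 27 bacterial spike controls. The members, gene lists and tests were chosen with earlier results of these data known. Every member may be named. Values per array were given by a rule on smallest p per role, and of each other list up to 3 genes with the smallest p per comparison. Symbols follow the platform annotation, updated through Entrez IDs, and promoters come from RefSeq (GRCh38.p14). The fit was tested on simulated arrays that all had the same spread at a given intensity. That test does not cover an array that stands apart, as THP-1 DMSO replicate 2 does.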

Additional observations from a re-analysis of the deposited data

Results flagged for a closer look

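On the quantile scale, for 6 mitosis genes (13.6%, beside 8.08% of all genes) the diclofenac arrays lay wholly above the DMSO arrays in 1 line and wholly below them in the other, and the difference of the diclofenac change (THP-1 minus HL-60) did not pass limma's adjusted threshold in any of them. It was 0.78 for CCNA2, 0.61 for KIF23, 0.43 for KIF11 and 0.36 for ECT2, which were higher with diclofenac in THP-1 and lower in HL-60. It was -0.33 for UBE2C and -0.40 for TOP2A, with the opposite pattern, and the Benjamini-Hochberg adjusted p-values of the 6 lay between 0.65 and 0.76. The value of CCNA2 came to 0.42 without THP-1 DMSO replicate 2. The probe sets of CCNA2 disagreed in sign in THP-1 and for this difference, and those of TOP2A in both lines and for the difference. On the deposited scale the arrays of UBE2C, KIF23 and TOP2A overlapped in at least 1 line.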

How the results depend on the processing

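With 2 arrays per group, an exact permutation test of 1 gene cannot go below 0.333, so calls rest on the spread limma shares across genes, and signal near background limits CDC20 and CDC25C. Without quantile normalization the members' median came to -0.08 for diclofenac in THP-1 and -0.13 between the lines with DMSO. With arrays centred on their medians, the medians came to 0.27 in THP-1, 0.15 in HL-60, 0.09 for the difference of the changes and -0.37 between the lines with DMSO, and the members called between the lines to 5 with DMSO and 4 with diclofenac. Without the intensity trend those calls were 7 and 11, and with only the compared groups fitted, or with array weights, 7 and 26. With probe sets lacking the _x_at or _s_at suffix preferred, the DMSO line median was -0.14 and TOP2A with diclofenac turned to 0.1 (THP-1 minus HL-60). Leaving out each array in turn, with a lone array taken to vary like the other groups, gave 0 to 16 members called in THP-1 (median -0.18 to -0.07), 0 in HL-60 (-0.08 to -0.03), 0 to 8 for the difference (-0.19 to -0.08), 6 to 24 between the lines with DMSO (-0.14 to -0.05) and 5 to 24 with diclofenac (-0.23 to -0.13). Replicate numbers did not pair arrays (correlations of deviations -0.00 in HL-60 and -0.01 in THP-1), and with a replicate block 0, 0 and 0 members were called in the drug comparisons and 14 and 16 between the lines. The causes were not tested.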
